A study of Arabidopsis thaliana with 12 samples.

Results

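In Arabidopsis thaliana seedlings, 103 features differed from the wild type in both swi3b +/- and idn2-1 and were not listed for nrpe1. They comprised 99 genes and 4 transposable elements. They were chosen by the calls of the authors' deposited tables, 1 table per mutant against Col-0: a feature had to be listed for swi3b +/- and for idn2-1, at a q-value below 0.05, and be missing from the table of nrpe1. The authors' deposited tables list 1618 features in all and share 171 between swi3b +/- and idn2-1, of which 68 are also in that of nrpe1. Because the calls in both mutants chose the members, their directions and folds are given as a description, without a test.

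The mutants were swi3b +/-, a heterozygote that keeps 1 SWI3B copy that is not mutant, and idn2-1, a mutant of IDN2. Col-0 was the wild type, and nrpe1, a mutant of the largest subunit of RNA polymerase V, served to leave features out. Each genotype had 3 samples of whole seedlings aged 2 to 3 weeks, grown in long days, and ribosomal RNA was removed from the total RNA. The replicates are called biological, and nothing more is said of how plants were pooled. Neither SWI3B nor IDN2 is listed in the authors' deposited tables, and 0 of 11 flower, root and seed marker genes are. Levels of these genes therefore offered no check of the swi3b +/-, idn2-1 and tissue labels. NRPE1 is listed for nrpe1 alone, 3.95-fold lower there in the authors' deposited table.

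IDN2 is a protein that binds double-stranded RNA and acts late in RNA-directed DNA methylation, where RNA polymerase V makes non-coding transcripts that guide silencing. SWI3B is a core subunit of SWI/SNF complexes, which use ATP to move or evict nucleosomes. IDN2 and SWI3B are known to interact, and the series was made around that link, so genes shared by their mutants without a call in the polymerase mutant are of interest.

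The deposited values are RPKM, reads scaled by transcript length and by library size, with 1 pooled value per genotype. There was therefore no spread between replicates to set against any difference, and the depth behind each value is unknown. Each call rests on the q-value that the authors deposited. The series has 1 set of 3 Col-0 samples for both comparisons, and a Col-0 level that is high or low by chance moves both folds the same way. A feature missing from the authors' deposited table of nrpe1 was not shown to be unchanged there.

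The members fell into a larger set that was higher in both mutants and a smaller one that was lower in both. The authors' deposited tables show that 66 members were higher in both (65 genes and 1 element), 35 were lower in both (33 genes and 2 elements), and 2 had opposite directions. Over all features tested, 2.43% were called in swi3b +/- (1.87% higher and 0.556% lower) and 3.18% in idn2-1 (1.24% higher and 1.95% lower). The rule itself fixes the members' calls, so nothing is read from these shares. Counting the 2 opposite members on each side, members were 67 of the 485 features higher in swi3b +/- (13.8%) and 36 of the 144 lower ones (25%) in the authors' deposited table. They were 67 of the 343 higher features (19.5%) and 36 of the 540 lower ones (6.67%) in the authors' deposited table of idn2-1.

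In the wild type, levels of the higher members were mostly low and those of the lower members higher, as they were over all listed features. The median Col-0 level of the higher members was 5.13 RPKM in the authors' deposited table of swi3b +/- and 4.73 RPKM in that of idn2-1. For the lower members with values above 0 it was 28.2 and 31.3 RPKM in the same 2 of the authors' deposited tables. Over all listed features above 0, the medians were 6.49 RPKM for higher and 32.5 RPKM for lower ones in the authors' deposited table of swi3b +/-, and 8.08 and 11.9 RPKM in that of idn2-1. In all, 80 members reached at least 5 RPKM in 1 genotype of each table and were above 0 throughout. The members included 95 protein-coding genes, 2 long non-coding RNAs, 1 microRNA precursor and 1 pseudogene by the RefSeq annotation of TAIR10.1. All 99 genes overlapped the annotated gene of the same identifier. The deposited loci of 28 members also held another annotated gene, among them those of MYC2, NHL3, CRK10, ACA1 and AT2G27080. Reads of such genes cannot be told apart where they overlap and strand is not known.

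**Figure D1:**
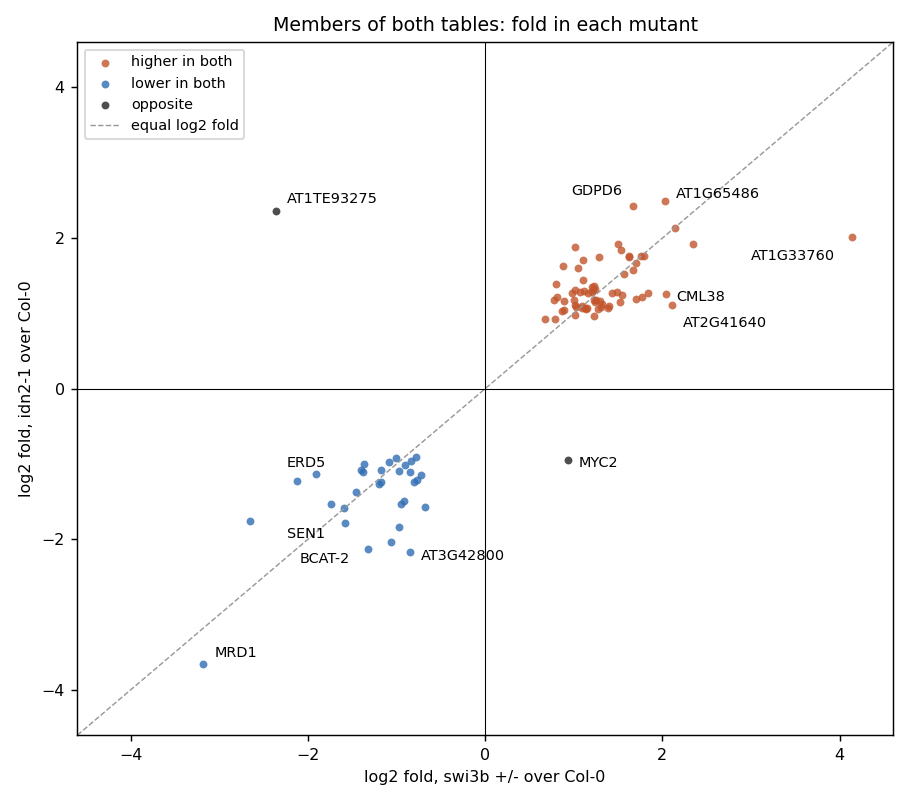
Log2 fold of swi3b +/- over Col-0 (horizontal axis) against log2 fold of idn2-1 over Col-0 (vertical axis), each within its own deposited table, for the 99 members above 0 in all 4 values. The 66 higher and 31 lower members form separate groups because the calls chose them. MRD1 lies farthest out among the lower ones, AT1G33760 among the higher ones, and MYC2 and AT1TE93275 stand in the opposite corners.

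Median sizes of change in the mutants lay close together. The median log2 fold of the 66 higher members was 1.23 in swi3b +/- and 1.27 in idn2-1 in the authors' deposited tables, beside 1.13 and 1.22 over all listed higher features above 0. The 31 lower members with values above 0 had medians of -1.09 in swi3b +/- and -1.23 in idn2-1, beside -0.91 and -1.24 over all listed lower features of the authors' deposited tables. Of the 66 higher members, 53 differed at least 2-fold in both mutants, and so did 16 of the 31 lower ones. In the authors' deposited tables the fold was larger in swi3b +/- for 32 and larger in idn2-1 for 34 higher members, and for 46 of the 66 the larger fold exceeded the smaller by at most 25%. Among the lower members 12 had the larger fold in swi3b +/- and 19 in idn2-1. The smallest listed fold was 1.55 in swi3b +/- and 1.86 in idn2-1 in the authors' deposited tables, so small changes could enter only through the swi3b +/- side. No difference in fold between the mutants was tested, since each has 1 value.

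The largest role group drawn from the lower members was one of carbon and amino acid supply. Plants that run short of sugar, as in darkness, are known to express genes that break down proline, branched-chain amino acids and stored sugars. The group holds 11 members (put together after their values were seen), and all 11 were lower in both mutants. It was drawn from lower members, so that shared direction follows from the choice. It takes in the transporter genes TMT1 and UMAMIT33, which are on neither pathway list used below. PPT2, a phosphoenolpyruvate/phosphate translocator gene outside the group, was 2.15-fold higher in swi3b +/- and 2.71-fold higher in idn2-1. Levels of the 11 genes were 1.79-fold to 4.34-fold lower in swi3b +/- and 1.95-fold to 4.36-fold lower in idn2-1 in the authors' deposited tables. Of the 11, 0 had Col-0 values that differed between the tables by the commonest ratio alone, so their sizes in idn2-1 depend on which Col-0 value is used. The deposited loci of BCAT-2, MCCA, ETFQO, TMT1 and UMAMIT33 also hold other annotated genes, so their values may include reads of those genes.

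SEN1 (chr4:16944941-16946192, TAIR10), a gene known to be induced by darkness and in ageing leaves, had the highest level of all members. It had 483 RPKM in swi3b +/- against 1444 RPKM in Col-0 in the authors' deposited table (q = 9.22e-10). In that of idn2-1 the authors' deposited table gives 478 RPKM against 1653 RPKM in Col-0 (q = 0.000342). Both mutants stood at about the same level, 33.4% and 28.9% of Col-0. SIP2 (chr3:21288765-21293158), which encodes an alpha-galactosidase that acts on raffinose, had 169 RPKM in swi3b +/- against 511 RPKM in Col-0 in the authors' deposited table (q = 6.87e-09). In idn2-1 it had 202 RPKM, against 607 RPKM in Col-0, in the authors' deposited table (q = 0.00738). The fall was thus 3.02-fold in swi3b +/- and 3.00-fold in idn2-1 with the deposited values, and smaller in idn2-1 with the rescaled Col-0 value given below. MIOX2 (chr2:8530189-8533508), a myo-inositol oxygenase, had 5.24 RPKM in swi3b +/- against 19.6 RPKM in Col-0 in the authors' deposited table (q = 0, as printed there). Its level in idn2-1 was 12.0 RPKM against 26.3 RPKM in Col-0 in the authors' deposited table (q = 0.00585). TMT1, a transporter that loads sugars into the vacuole, had 10.7 RPKM in swi3b +/- against 28.2 RPKM in Col-0, and 12.9 RPKM in idn2-1 against 27.2 RPKM in Col-0, in the authors' deposited tables.

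Amino acid genes of the group moved the same way. ERD5 (chr3:12448636-12451248), the proline dehydrogenase that starts proline breakdown, had 36.9 RPKM in swi3b +/- against 160 RPKM in Col-0 in the authors' deposited table. The authors' deposited table of idn2-1 gives 62.1 RPKM in the mutant against 146 RPKM in Col-0 (q = 0.00537). ERD5 was thus at 23.0% of Col-0 in swi3b +/- and at 42.7% in idn2-1, the largest such gap toward swi3b +/- among members of at least 5 RPKM that were lower. ASN1 (chr3:17437884-17441243), a dark-induced asparagine synthase, had 63.7 RPKM in swi3b +/- against 143 RPKM in Col-0 in the authors' deposited table (q = 1.03e-06). In idn2-1 it had 67.3 RPKM against 142 RPKM in Col-0 in the authors' deposited table (q = 0.0287). UMAMIT33, of a family of amino acid transporters, was the lowest of the group, with 1.61 RPKM in swi3b +/- against 3.71 RPKM in Col-0, and 1.48 RPKM in idn2-1 against 3.55 RPKM in Col-0, in the authors' deposited tables.

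Breakdown of leucine, isoleucine and valine was represented by 4 members. BCAT-2 (chr1:3288087-3296198), a transaminase that takes the first step, had 15.5 RPKM in swi3b +/- against 38.8 RPKM in Col-0 in the authors' deposited table (q = 3.07e-08). Its level in idn2-1 was 9.30 RPKM against 40.6 RPKM in Col-0 in the authors' deposited table (q = 1.67e-10), the deepest fall of the group in that mutant. AT1G21400, a thiamin diphosphate-binding protein gene that the list takes as a subunit of the keto acid dehydrogenase of the next step, had 15.7 RPKM in swi3b +/- against 30.9 RPKM in Col-0, and 14.9 RPKM in idn2-1 against 31.7 RPKM in Col-0, in the authors' deposited tables. MCCA encodes the alpha chain of methylcrotonyl-CoA carboxylase, which acts later in leucine breakdown. It had 14.7 RPKM in swi3b +/- against 37.9 RPKM in Col-0, and 21.0 RPKM in idn2-1 against 42.2 RPKM in Col-0, in the authors' deposited tables. ETFQO passes electrons from branched-chain amino acid breakdown to the respiratory chain. It had 15.2 RPKM in swi3b +/- against 27.2 RPKM in Col-0, and 16.1 RPKM in idn2-1 against 31.3 RPKM in Col-0, in the authors' deposited tables.

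**Figure D2:**
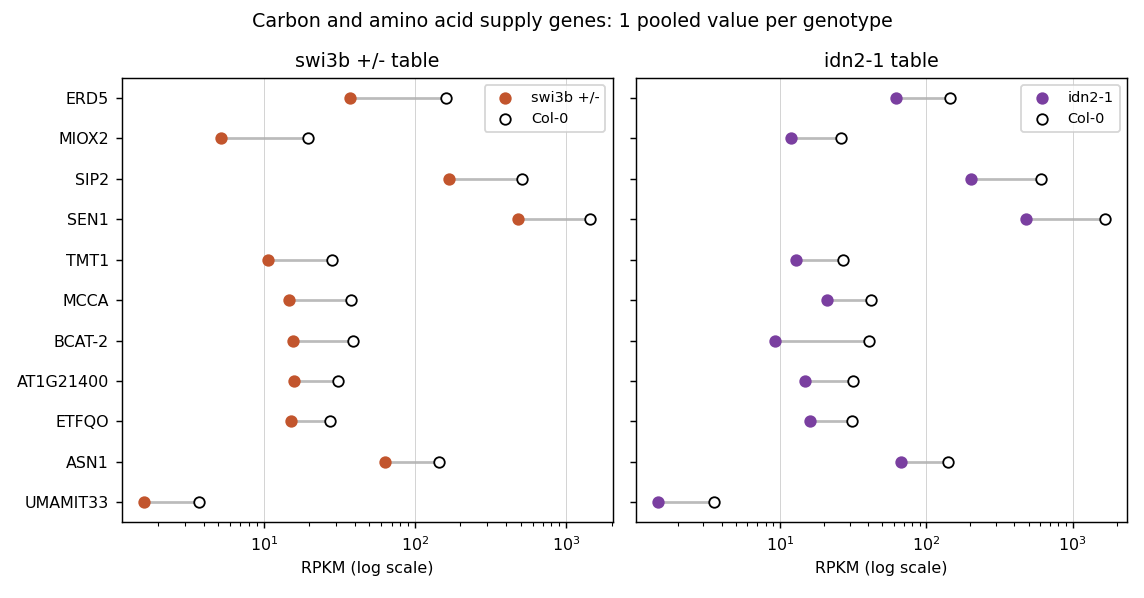
Levels of the 11 carbon and amino acid supply genes, in RPKM on a log scale; filled points are swi3b +/- (left panel) or idn2-1 (right panel), open points Col-0 of the same deposited table, 1 pooled value each. Every filled point lies left of its open point, from SEN1 at 483 RPKM in swi3b +/- and 1444 RPKM in Col-0 to UMAMIT33 at 1.61 and 3.71 RPKM.

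Counts over pathway lists set these members beside other genes of their pathway. Of 18 genes of a list for sugar starvation and darkness, 6 were members (SEN1, ASN1, SIP2, ERD5, MIOX2 and BCAT-2). The authors' deposited tables call 9 of the 18 lower and 0 higher in swi3b +/-, 6 lower and 0 higher in idn2-1, and 3 lower and 1 higher in nrpe1. Over all features tested, 0.556% were called lower in swi3b +/-, 1.95% in idn2-1 and 0.848% in nrpe1, and in nrpe1 1.04% were called higher and 1.88% in either direction. The genes called lower in swi3b +/- but not listed for idn2-1 included GDH2, a glutamate dehydrogenase, with 16.8 RPKM against 39.5 RPKM in Col-0 in the authors' deposited table (q = 3.24e-07). A list of 14 genes of branched-chain amino acid breakdown was added after values were seen. Of the 14, 8 were called lower in swi3b +/-, 4 in idn2-1 and 0 in nrpe1 in the authors' deposited tables, with none higher. The 4 called in idn2-1 are the members described above. Their calls in both mutants and their absence for nrpe1 follow from the rule, as do those of the 6 members of the first list. BCE2, the core subunit of the same dehydrogenase, was called in swi3b +/- alone, with 15.7 RPKM against 29.5 RPKM in Col-0 in the authors' deposited table (q = 0.000666). A list for trehalose phosphate metabolism, which signals sugar status, had 0 of 11 genes among the members. A list of 14 photosynthesis genes also had 0 members.

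The Col-0 value of the same gene differed between the tables, and this touches the idn2-1 side of the carbon group. Of the 171 shared features, 63 had a Col-0 value in the authors' deposited table of idn2-1 that was 0.854 times that of swi3b +/-, to within 0.1%. That commonest ratio held for 19 of the 21 member genes with 1 exon and for 17 of the 78 with 2 or more. Relative to it, the median departure was 1.007 for the higher and 1.09 for the lower member genes. It was 1.22 for the 11 carbon and amino acid genes, with a range of 1.06 to 1.57 and 0 of the 11 at the common ratio. Departures of more than 25% above it occurred in 9 member genes, of which 7 were lower members and 5 of these were MIOX2, SIP2, ETFQO, SEN1 and MCCA.

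If the Col-0 value of the swi3b +/- table, scaled by that ratio, is put in place of the deposited one, all 11 genes stay lower in idn2-1, by 1.398-fold (MIOX2) to 3.57-fold (BCAT-2). In idn2-1, SIP2 is then 2.16-fold lower instead of 3.00-fold, and SEN1 2.58-fold instead of 3.46-fold. Only 6 of the 11 then reach the smallest fold listed for idn2-1, 1.86. The other 5 are MIOX2, ETFQO, MCCA, AT1G21400 and ASN1. Of all 31 lower members above 0, 24 reach it, and of the 66 higher members all 66 do. This sets values of separately made tables side by side, and the cause of the departures was not tested.

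**Figure D3:**
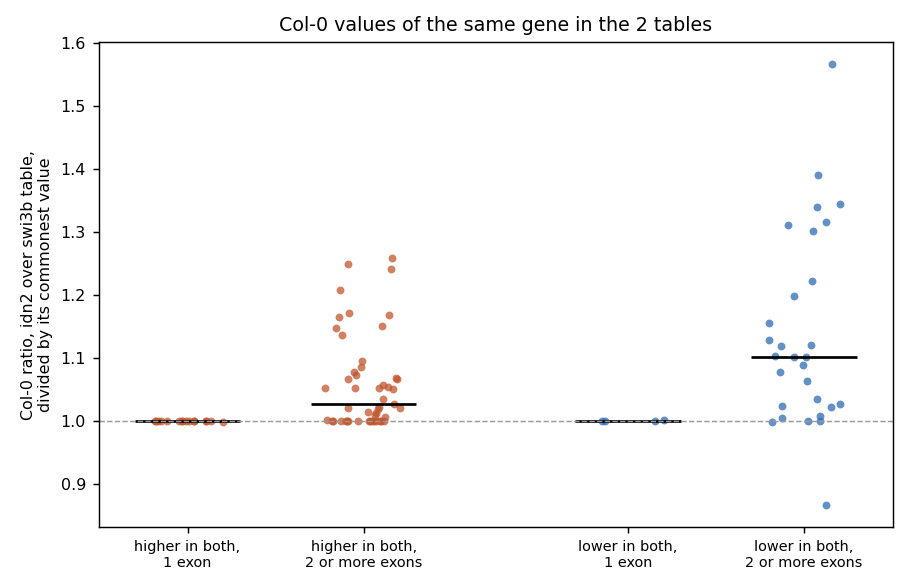
Ratio of the Col-0 value in the idn2-1 table to that in the swi3b +/- table, divided by the commonest ratio of shared features (vertical axis), for the member genes higher or lower in both mutants, split by number of exons; points are genes and black bars medians. Single-exon genes sit at 1, whereas lower genes with 2 or more exons have a median of 1.102 and reach 1.57.

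Lower members outside the carbon and amino acid group are given singly, and whether they share a role was not tested. MRD1 (chr1:19963047-19969757), named for a fall in a methionine-overproducing mutant, had the largest fall of all. It had 4.17 RPKM in swi3b +/- against 37.7 RPKM in Col-0, and 2.56 RPKM in idn2-1 against 32.2 RPKM in Col-0, in the authors' deposited tables (q = 0 in both, as printed there). The fall was 9.05-fold in swi3b +/- and 12.6-fold in idn2-1, and the Col-0 value was at 0.998 of the common scaling. Its deposited locus of 6711 bp also spans AT1G53490, which is listed as lower in idn2-1, with 0.776 RPKM against 1.74 RPKM in Col-0 in the authors' deposited table (q = 0.0419). ABCB21, a transporter of the P-glycoprotein family that carries auxin, had 7.43 RPKM in swi3b +/- against 15.5 RPKM in Col-0, and 3.58 RPKM in idn2-1 against 14.6 RPKM in Col-0, in the authors' deposited tables. AT3G42800 was the only lower member with folds more than 2 times apart, 1.80-fold lower in swi3b +/- and 4.51-fold lower in idn2-1 in the authors' deposited tables. AT1G12080, annotated as a vacuolar calcium-binding-like protein, had 188 RPKM in swi3b +/- against 301 RPKM in Col-0, and 89.3 RPKM in idn2-1 against 264 RPKM in Col-0, in the authors' deposited tables. AT2G41990, annotated as a late embryogenesis abundant protein, had log2 folds of -1.38 in swi3b +/- and -1.11 in idn2-1 in the authors' deposited tables.

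Of the lower members, 4 were listed at 0 RPKM in both mutants: the long non-coding RNAs AT1G17232 and AT5G16235, the pseudogene AT4G06510 and the element AT3TE63765. Their Col-0 values were low, between 0.757 and 2.32 RPKM in the authors' deposited table of swi3b +/- and between 0.651 and 1.72 RPKM in that of idn2-1. No fold is given against a value of 0, which in such a table can also be a failed estimate. Except for AT4G06510, these features lie in loci that hold another annotated gene (AT1G17230, AT5G16230 and AT3G43955), and reads of the 2 cannot be told apart where strand is not known.

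AT2G30600, a BTB/POZ protein gene, was the only member whose locus overlapped one listed for nrpe1. It had 78.7 RPKM in swi3b +/- against 154 RPKM in Col-0, and 48.3 RPKM in idn2-1 against 172 RPKM in Col-0, in the authors' deposited tables. AT2G30615 shares that locus and is listed as lower in swi3b +/- and nrpe1 but as higher in idn2-1, with 319 RPKM against 92.5 RPKM in Col-0 in the authors' deposited table (q = 3.02e-06). How reads were divided between the 2 genes is not known here. The elements had the same limit: AT4TE67650, higher in both mutants, lies in the locus of AT4G29020, and AT5TE34945, lower in both, in that of AT5G27330.

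The higher members included genes of calcium, defence and stress signalling. Calcium ions rise in the cytosol within moments of touch, wounding or pathogen contact, and calmodulin-like proteins and pumps read and reset that signal. CML38 (chr1:28766750-28768138), a calmodulin-like protein, had 13.4 RPKM in swi3b +/- against 3.25 RPKM in Col-0 in the authors' deposited table (q = 6.25e-11). In idn2-1 it had 6.65 RPKM against 2.78 RPKM in Col-0 in the authors' deposited table (q = 0.0101). The rise was 4.11-fold in swi3b +/- and 2.39-fold in idn2-1. MSS3, another calcium-binding EF-hand protein, had 121 RPKM in swi3b +/- against 42.3 RPKM in Col-0, and 80.4 RPKM in idn2-1 against 36.2 RPKM in Col-0, in the authors' deposited tables. ACA1, a pump that removes calcium from the cytosol, had 21.9 RPKM in swi3b +/- against 9.20 RPKM in Col-0, and 18.7 RPKM in idn2-1 against 8.27 RPKM in Col-0, in the authors' deposited tables. These 3 calcium genes were put together after their values were seen. AT1G12080, the vacuolar calcium-binding-like gene given above, went the other way, 1.60-fold lower in swi3b +/- and 2.96-fold lower in idn2-1.

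A group of 6 higher members put together after their values were seen encodes receptors and other defence proteins. They were 1.86-fold to 2.46-fold higher in swi3b +/- and 2.07-fold to 2.57-fold higher in idn2-1 in the authors' deposited tables. They comprise 3 disease resistance genes of the TIR-NBS-LRR class (AT1G63860, AT3G44630 and AT5G58120), TIR, the receptor kinase CRK10 and NHL3. TIR (AT1G72930), a short protein with the Toll/interleukin-1 domain alone, had 135 RPKM in swi3b +/- against 54.9 RPKM in Col-0, and 105 RPKM in idn2-1 against 47.0 RPKM in Col-0, in the authors' deposited tables. NHL3, a membrane protein linked to resistance against bacteria, had 118 RPKM in swi3b +/- against 50.5 RPKM in Col-0, and 97.6 RPKM in idn2-1 against 43.1 RPKM in Col-0, in the authors' deposited tables. AT3G44630, at 3.59 RPKM in swi3b +/- and 1.53 RPKM in Col-0 in the authors' deposited table, was among the weakest. Resistance genes of this class occur in families of similar sequence, so their values may hold reads of relatives. Receptor kinase genes did not all go this way. AT1G15530, of the lectin protein kinase family, had log2 folds of -0.80 in swi3b +/- and -1.24 in idn2-1, and AT5G59680, of the leucine-rich repeat kinase family, -1.17 in swi3b +/- and -1.23 in idn2-1, in the authors' deposited tables.

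A group of 5 higher members put together after their values were seen encodes transcription factors. AT1G33760 (chr1:12237878-12238598), of the AP2/ERF family, was the only higher member with folds more than 2 times apart. It had 17.7 RPKM in swi3b +/- against 1.002 RPKM in Col-0 in the authors' deposited table, a 17.6-fold rise. Its level in idn2-1 was 3.47 RPKM against 0.856 RPKM in Col-0, 4.06-fold (q = 0.0367), in the authors' deposited table. DREB26 and ESE3, of the same family, were 2.71-fold and 3.59-fold higher in swi3b +/- and 2.41-fold and 2.42-fold higher in idn2-1 in the authors' deposited tables. The zinc finger gene ZAT7 had 6.36 RPKM in swi3b +/- against 2.06 RPKM in Col-0, and 5.91 RPKM in idn2-1 against 1.76 RPKM in Col-0, in the authors' deposited tables. AT5G50915, a helix-loop-helix gene, was 3.08-fold higher in swi3b +/- and 3.39-fold higher in idn2-1 in the authors' deposited tables. Transcription factor genes did not all go this way. BLH4 was 1.72-fold lower in swi3b +/- and 1.88-fold lower in idn2-1, and MYC2, given below, went in opposite directions.

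Jasmonate, the wound hormone, supplied 3 members. AOC3, which makes a jasmonate precursor, had 7.41 RPKM in swi3b +/- against 2.27 RPKM in Col-0, and 4.42 RPKM in idn2-1 against 1.94 RPKM in Col-0, in the authors' deposited tables. VSP1, a storage protein induced by jasmonate, had 9.12 RPKM in swi3b +/- against 3.498 RPKM in Col-0, and 6.72 RPKM in idn2-1 against 3.21 RPKM in Col-0, in the authors' deposited tables. MYC2 (chr1:11798810-11800988), the transcription factor that turns on many jasmonate responses, went in opposite directions. It had 89.4 RPKM in swi3b +/- against 46.9 RPKM in Col-0 (q = 0.000189), and 20.8 RPKM in idn2-1 against 40.1 RPKM in Col-0 (q = 0.0327), in the authors' deposited tables. MYC2 has 1 exon, and its Col-0 values were at 1.002 times the common scaling. The difference between the mutants was 1.88 on the log2 scale and was not tested.

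**Figure D4:**
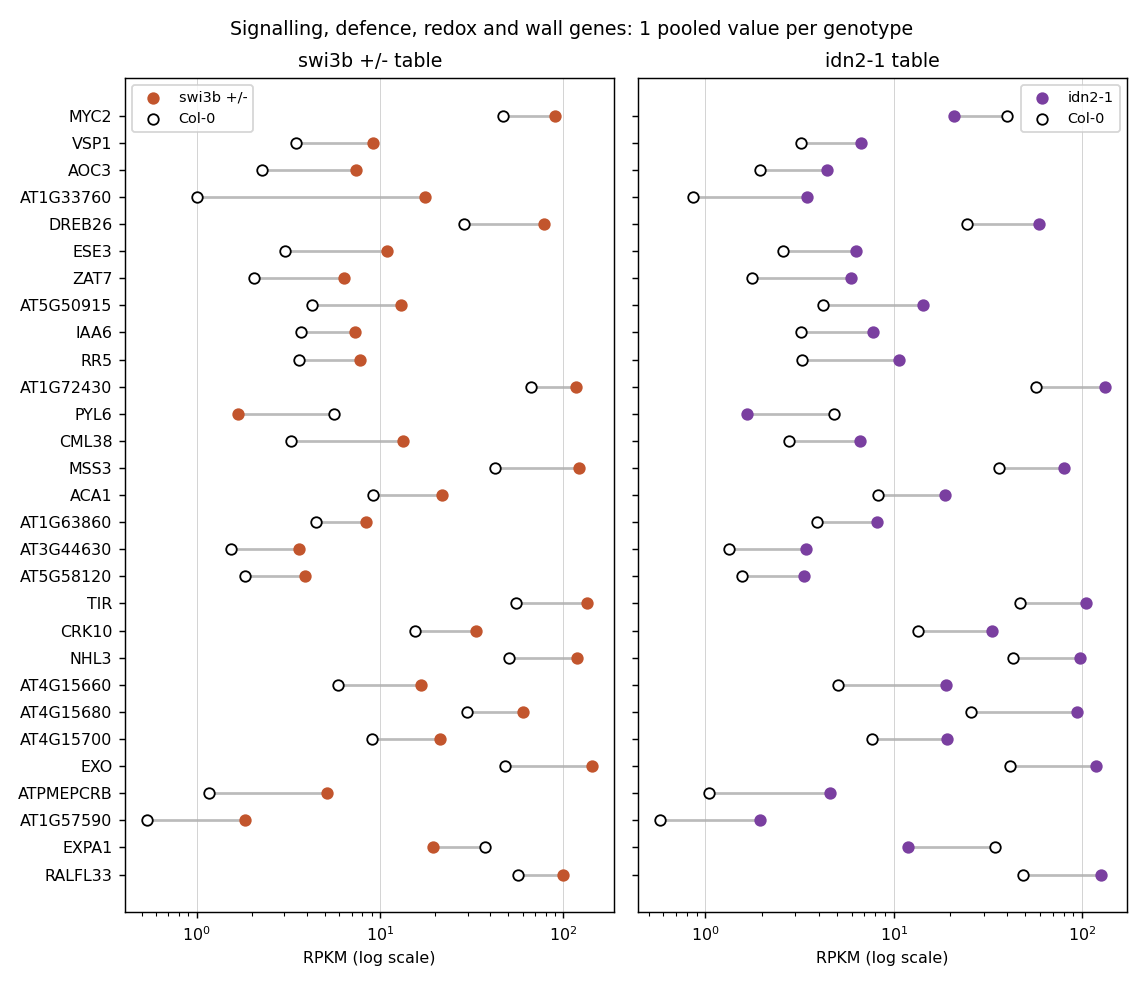
Levels of 29 members with roles in hormone response, transcription, calcium signalling, defence, redox and the cell wall, in RPKM on a log scale; filled points are swi3b +/- (left panel) or idn2-1 (right panel), open points Col-0 of the same deposited table, 1 pooled value each. MYC2, in the top line, is at 89.4 RPKM in swi3b +/- and 46.9 RPKM in Col-0, and at 20.8 RPKM in idn2-1 and 40.1 RPKM in Col-0.

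Hormone and growth genes were few and went both ways. IAA6, a repressor of auxin responses, had 7.26 RPKM in swi3b +/- against 3.68 RPKM in Col-0, and 7.72 RPKM in idn2-1 against 3.21 RPKM in Col-0, in the authors' deposited tables. RR5, a cytokinin-induced response regulator, was 2.15-fold higher in swi3b +/- and 3.28-fold higher in idn2-1 in the authors' deposited tables, and AT1G72430, of the SAUR-like family, 1.76-fold and 2.32-fold. PYL6, an abscisic acid receptor, was lower, with 1.69 RPKM in swi3b +/- against 5.64 RPKM in Col-0, and 1.67 RPKM in idn2-1 against 4.81 RPKM in Col-0, in the authors' deposited tables. EXPA1, an expansin that loosens cell walls, was lower, with 19.3 RPKM in swi3b +/- against 37.2 RPKM in Col-0, and 11.9 RPKM in idn2-1 against 34.3 RPKM in Col-0, in the authors' deposited tables. EXO, a wall protein that promotes growth under brassinosteroids, was higher, with 143 RPKM in swi3b +/- against 48.2 RPKM in Col-0, and 118 RPKM in idn2-1 against 41.2 RPKM in Col-0, in the authors' deposited tables. RALFL33, a secreted signalling peptide, was 1.75-fold higher in swi3b +/- and 2.61-fold higher in idn2-1, and the pectin-acting genes ATPMEPCRB and AT1G57590 were 4.42-fold and 3.40-fold higher in swi3b +/- and 4.40-fold and 3.39-fold in idn2-1 in the authors' deposited tables.

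Large rises of other roles were spread over the genome. AT1G65486, an uncharacterised protein gene, led the higher members by the smaller of its 2 folds, with 9.75 RPKM in swi3b +/- against 2.38 RPKM in Col-0, and 11.4 RPKM in idn2-1 against 2.04 RPKM in Col-0, in the authors' deposited tables. AT2G32200, annotated as a cysteine-rich transmembrane protein, had 11.9 RPKM in swi3b +/- against 2.33 RPKM in Col-0, and 7.51 RPKM in idn2-1 against 1.99 RPKM in Col-0, in the authors' deposited tables. GSTF12, a glutathione transferase known to carry anthocyanins toward the vacuole, was 3.26-fold higher in swi3b +/- and 3.19-fold higher in idn2-1 in the authors' deposited tables. AT1G07135, a glycine-rich protein gene, reached the highest level of the higher members, 324 RPKM in swi3b +/- against 111 RPKM in Col-0, and 225 RPKM in idn2-1 against 95.2 RPKM in Col-0, in the authors' deposited tables. Chromosomes 1 to 5 held 34, 18, 17, 14 and 20 members, and 0 pairs of member loci lay within 5 kb of each other. That 0 depends on the limit, since some members lay only a little farther apart. The glutaredoxin members AT4G15680 and AT4G15700, described below, start 6046 and 11787 bp after the start of AT4G15660.

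Other lists had between 0 and 2 of their genes among the members. Members were 103 features in all, with 25877 features tested for swi3b +/- and 27755 for idn2-1. Over all features tested, 1.87% were called higher in swi3b +/-, 1.24% in idn2-1 and 1.04% in nrpe1. Lower calls made up 0.556%, 1.95% and 0.848% in the same order. The touch and wounding list had 2 of 16 (CML38 and EXO); the authors' deposited tables call 11 of the 16 higher in swi3b +/-, 8 in idn2-1 and 7 in nrpe1. The list of rapid stress transcription factors had 0 of 26, with 21 called higher in swi3b +/-, 2 higher and 1 lower in idn2-1 and 8 higher in nrpe1 in the authors' deposited tables. The jasmonate list had 2 of 25 (MYC2 and VSP1), with 13 called higher in swi3b +/-, and 1 higher and 2 lower in idn2-1, in the authors' deposited tables. Auxin and growth had 2 of 15 (IAA6 and EXPA1), and abscisic acid, cold and drought 1 of 25 (PYL6). Lists for salicylic acid (21 genes), ethylene (12), the circadian clock (18), RNA-directed DNA methylation (26) and SWI/SNF (13) had 0 members each. The lists do not hold every gene of a pathway, so a count of 0 covers the listed genes only. AOC3, for example, is a member but is not on the jasmonate list.

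MIR163 (AT1G66725, chr1:24883931-24884559), the precursor gene of a microRNA that targets methyltransferases of secondary metabolism, was higher in both mutants. Its mature RNA is shown because MIR163 was the only microRNA gene among the members. The mature RNA lies at chr1:24884359-24884382 on the plus strand (TAIR10.1, RefSeq), is 24 bases long, and bases 2 to 8 are in capitals:
miR163: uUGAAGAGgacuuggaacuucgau
The MIR163 locus had 6.02 RPKM in swi3b +/- against 1.74 RPKM in Col-0 (q = 0.0339), and 5.04 RPKM in idn2-1 against 1.49 RPKM in Col-0 (q = 0.0339), in the authors' deposited tables. These reads are of the precursor locus in total RNA libraries, and the mature microRNA was not measured. AT3G44860, a methyltransferase gene known as a target of miR163, is listed for swi3b +/- alone, as higher, with 20.8 RPKM against 6.54 RPKM in Col-0 in the authors' deposited table (q = 1.35e-09).

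A run of glutaredoxin genes on chromosome 4 supplied 3 of the higher members. Glutaredoxins are small redox proteins, and in Arabidopsis those of this class are known to respond to nitrate and cytokinin. AT4G15660 had 16.7 RPKM in swi3b +/- against 5.90 RPKM in Col-0, and 19.1 RPKM in idn2-1 against 5.04 RPKM in Col-0, in the authors' deposited tables. AT4G15680 had 60.3 RPKM in swi3b +/- against 29.9 RPKM in Col-0, and 94.3 RPKM in idn2-1 against 25.6 RPKM in Col-0, in the authors' deposited tables. AT4G15700 had 21.3 RPKM in swi3b +/- against 8.999 RPKM in Col-0, and 19.2 RPKM in idn2-1 against 7.69 RPKM in Col-0, in the authors' deposited tables. The 2 genes between them, AT4G15670 and AT4G15690, are listed for idn2-1 alone, 2.76-fold and 3.303-fold higher in the authors' deposited table.

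The 5 genes all lie on the plus strand, each coding sequence is 309 bases long, and any 2 agree at 88.3% to 93.2% of positions. Their first 60 coding bases are shown because the likeness decides how far reads can tell them apart; capitals mark the 11 positions at which they differ (TAIR10.1, genes from chr4:8925571-8926510 for AT4G15660 to chr4:8937358-8938124 for AT4G15700):
AT4G15660: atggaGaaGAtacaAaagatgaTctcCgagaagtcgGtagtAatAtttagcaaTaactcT
AT4G15670: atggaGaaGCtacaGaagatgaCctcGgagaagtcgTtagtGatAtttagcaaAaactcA
AT4G15680: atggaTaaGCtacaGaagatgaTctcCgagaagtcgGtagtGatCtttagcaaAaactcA
AT4G15690: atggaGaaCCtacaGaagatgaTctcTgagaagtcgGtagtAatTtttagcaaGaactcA
AT4G15700: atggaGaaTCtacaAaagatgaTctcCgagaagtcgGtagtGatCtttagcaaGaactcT
The longest stretch shared by 2 of them without a difference is 71 bases. The split of reads among these copies is therefore uncertain, and its part in which of the 5 are listed was not tested.

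The promoters of the higher members held the W-box more often than other promoters did. The W-box is the motif bound by WRKY factors, a plant family best known for defence and wound responses, and the rule that chose the members did not use sequence. The window was the 250 bases before the annotated gene start, read on both strands, for 64 higher and 30 lower protein-coding members and 27443 protein-coding genes in all. The core TTGACT was in 31 of the 64 windows of higher members (48.4%), against 9 of 30 of lower members (30.0%) and 19.1% of all genes. Other higher genes of the swi3b +/- and idn2-1 tables held it in 25.9% and 25.3%. The related core TTGACC was in 17.2% of the higher, 6.67% of the lower and 12.2% of all windows. At least 1 of the 2 cores stood in 36 of the 64 windows (56.3%), against 28.4% of all windows, and 2 or more sites in 20.3% against 6.18%. Other higher genes held at least 1 core in 36.9% (swi3b +/-) and 35.0% (idn2-1), and 2 or more sites in 9.54% and 9.68%. A and T bases made up 69.7% of the windows of higher members and 68.5% of all. These shares are a description without a test, and a match is not a binding site.

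The windows with 3 sites each, the most among the members, are those of AT2G27080, an LEA-type glycoprotein gene (plus strand, chr2:11563683-11563932), and AT5G36925, an uncharacterised protein gene (minus strand, chr5:14566440-14566689). Both are shown in the direction of the gene, from TAIR10.1, with W-box cores in capitals, where AGTCAA and GGTCAA are the cores read from the other strand:
AT2G27080: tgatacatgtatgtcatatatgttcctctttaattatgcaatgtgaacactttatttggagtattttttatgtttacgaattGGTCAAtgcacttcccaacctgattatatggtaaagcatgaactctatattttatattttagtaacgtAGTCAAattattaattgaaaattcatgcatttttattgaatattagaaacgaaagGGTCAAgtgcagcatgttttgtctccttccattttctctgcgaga
AT5G36925: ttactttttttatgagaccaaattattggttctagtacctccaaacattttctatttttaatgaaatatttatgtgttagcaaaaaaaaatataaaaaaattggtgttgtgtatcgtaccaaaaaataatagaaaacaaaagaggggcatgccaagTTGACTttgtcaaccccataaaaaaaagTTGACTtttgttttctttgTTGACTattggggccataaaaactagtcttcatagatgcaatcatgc
AT2G27080 had 24.0 RPKM in swi3b +/- against 7.05 RPKM in Col-0, and 14.0 RPKM in idn2-1 against 6.02 RPKM in Col-0, in the authors' deposited tables. AT5G36925 had 24.8 RPKM in swi3b +/- against 7.79 RPKM in Col-0, and 23.9 RPKM in idn2-1 against 8.04 RPKM in Col-0, in the authors' deposited tables. In all, the windows of 13 higher members held 2 or more sites, those of LEA3, AT1G13470 and ACA1 among them with 2 each.

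**Figure D5:**
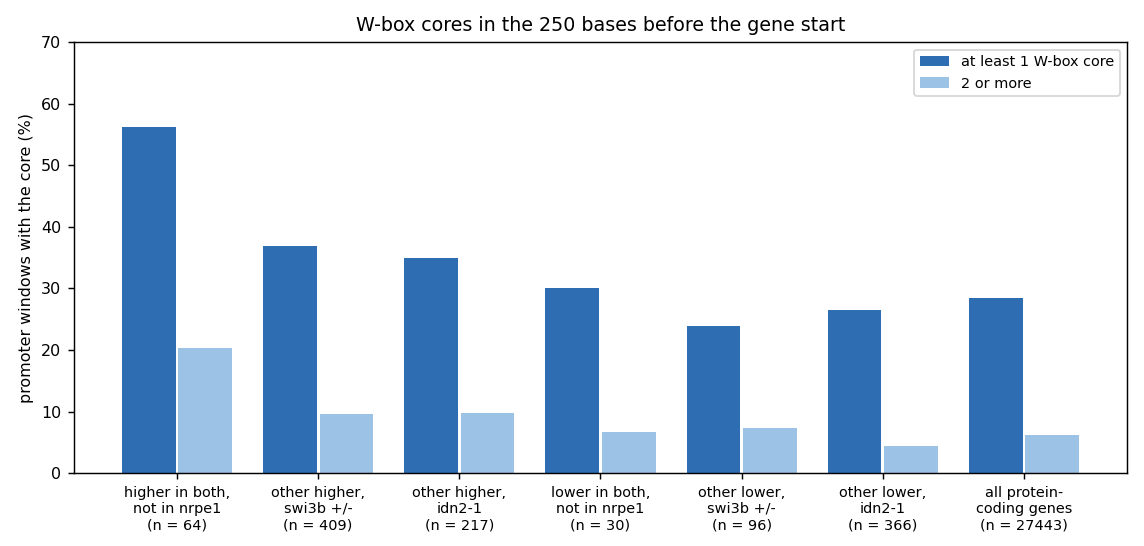
Share of 250-base promoter windows (%) with at least 1 W-box core (dark bars) or 2 or more (light bars), for higher and lower members, for other listed protein-coding genes of each table and for all protein-coding genes; n is the number of windows. The higher members stand at 56.3% and 20.3%, all protein-coding genes at 28.4% and 6.18%. Other higher genes stand at 36.9% and 9.54% for swi3b +/- and at 35.0% and 9.68% for idn2-1.

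In all, 10 motifs were searched on both strands, the 2 W-box cores among them. The core TTGACT had the largest gap in percentage points between higher members and all windows, and TTGACC did not stand out. As a ratio to all windows, the next 2 motifs stood further apart than TTGACT. The rapid stress response core CGCGTT was in 9.38% of the higher, 3.33% of the lower and 2.59% of all windows. The CGCG box ACGCGT, bound by calmodulin-dependent factors, was in 10.9%, 6.67% and 1.67%. Each of these rests on 7 or fewer windows of higher members. Over all listed higher protein-coding genes, members included, CGCGTT was in 7.59% for the SWI3B mutant and 7.12% for the IDN2 mutant. ACGCGT was in 7.17% and 6.76% in the same order. Listed higher genes as a whole thus also held both motifs more often than all windows did, so the surplus was not particular to the members. The G-box CACGTG, which MYC2 binds, was in 4.69% of the higher, 13.3% of the lower and 6.49% of all windows. The evening element AAAATATCT was in 4.69%, 6.67% and 2.36%, and the abscisic acid element ACGTGGC in 6.25%, 3.33% and 3.37%. Over all listed higher genes they were in 4.43% and 5.70% for the SWI3B mutant, and in 2.14% and 3.56% for the IDN2 mutant. The ethylene-linked GCC-box core GCCGCC was in 1.56%, 6.67% and 1.87%. The TATA box TATAAA was in 53.1%, 46.7% and 47.3%. ACTCAT, known from the promoter of proline dehydrogenase genes, was in 20.3% of the higher, 20% of the lower and 12.3% of all windows. The G-box and the abscisic acid element share letters and can overlap, as can the CGCG box and the rapid stress response core.

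Lower members were longer than higher members, as were the listed lower genes of both tables. The protein-coding genes among the higher members had a median length of 1590.5 bp with introns, and those among the lower members 2387 bp, beside 2078 bp over all annotated ones. Genes with 1 exon were 23.4% of the higher, 10% of the lower and 18.9% of all. Over the authors' deposited table of swi3b +/- the medians were 1987 bp for listed higher and 2388 bp for listed lower protein-coding genes, of which 26.4% and 13.5% had 1 exon. Over the authors' deposited table of idn2-1 they were 1503 bp for listed higher and 2921 bp for listed lower ones.

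The members nearest the limit of q were AT2G42975 at 0.0497, AT1G15530 at 0.0477 and AT1G32520 at 0.0472 in the authors' deposited table of swi3b +/-. For idn2-1 they were AT5G12110 at 0.0499, BLH4 at 0.0496 and AT5G57760 at 0.0491 in the authors' deposited table. AT5G12110 had 10.2 RPKM in idn2-1 against 5.22 RPKM in Col-0, and BLH4, a homeodomain factor of leaf shape, 12.0 RPKM in idn2-1 against 22.4 RPKM in Col-0, in the authors' deposited table. The tables end at the limit, so features just outside it are not analysed here. The element AT1TE93275 (chr1:28515062-28516118), which lies in the locus of AT1G75945, was the other member with opposite directions. It had 0.643 RPKM in swi3b +/- against 3.298 RPKM in Col-0 (q = 0.0119), and 14.5 RPKM in idn2-1 against 2.82 RPKM in Col-0 (q = 1.88e-09), in the authors' deposited tables.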

How the data were processed

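RNA-seq of rRNA-depleted total RNA from 9 seedling samples (3 each of swi3b +/-, idn2-1 and Col-0) was used, with nrpe1 only to exclude features. Per the submitters' processing notes, TopHat, Cufflinks and TAIR10 were used; no versions are given. The authors deposited 1 table per mutant with pooled RPKM values per genotype, a log2 fold score in which a number stands for infinity where a value is 0, and a p-value and q-value. The method behind these values and any strand information are not given in the sources used. There were 0 unmapped columns of per-sample values.

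Log2 folds were recomputed from the deposited RPKM values, mutant over Col-0, within each table (largest difference to the deposited log2 value 1.24e-05). No pseudocount was used and no new test was run, since there is 1 value per genotype. Percentages of calls refer to all features tested, whose number (25877 for swi3b +/-, 27755 for idn2-1, 27012 for nrpe1) was recovered from the deposited p-values and q-values under the Benjamini-Hochberg relation. The step was tested on simulated data. Deposited starts were written 1-based by adding 1; gene names, classes and sequences came from RefSeq TAIR10.1.

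The members and gene lists were chosen with earlier results of these data known; role groups, the list for branched-chain amino acid breakdown, the glutaredoxin run and the motif ACTCAT were added after values were seen. Genes named in full are the 10 largest rises and 10 largest falls by the smaller fold (at least 5 RPKM), members with opposite directions or at 0, members of lists, the 5 largest differences in fold each way and the 3 largest q-values per table; others were chosen after their values were seen. Analyses used python 3.11.15, pandas 2.3.3, numpy 2.4.6 and matplotlib 3.10.9.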

Additional observations from a re-analysis of the deposited data

Results flagged for a closer look

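MYC2 and AT1TE93275 moved in opposite directions in the mutants, which drew attention to them. For MYC2 the log2 fold in swi3b +/- minus that in idn2-1 was 1.88. For AT1TE93275 it was -4.72. Each rests on 1 pooled value per genotype in the authors' deposited tables, and the difference between the mutants was not tested.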

How the results depend on the processing

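No paired analysis was possible because the tables hold 1 pooled value per genotype, and no replicate could be left out for the same reason. At q below 0.01 on both sides, 32 higher, 17 lower and 0 opposite members were left, and under a Bonferroni adjustment 4, 5 and 0. At least 2-fold in both kept 20 lower members (16 with values above 0, and the 4 at 0 in both mutants) and 1 opposite; the opposite count was also 1 at 5 RPKM and among protein-coding genes. On the log2(RPKM + 1) scale the medians of higher members were 1.07 in swi3b +/- and 1.098 in idn2-1, and those of all 35 lower members, with the 4 at 0 that the other medians leave out, -0.93 and -1.06. Alternatives added after seeing the data used single-exon genes (median of higher members 1.42 in swi3b +/-; larger fold in swi3b +/- for 9 of 16 higher and 2 of 3 lower members) and the rescaled Col-0 (larger fold in swi3b +/- for 19 of 31 lower members, against 12 with the deposited values). Counts by direction and medians under the other alternatives stayed within 1.5 times or 0.1 on the log2 scale. No direction of a named gene turned. Depth is unknown, so its limit on low values could not be given.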
